A study of Mus musculus with 16 samples.

Results

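The AP-1 and immediate early genes described here are Jun, Junb, Jund, Fos, Fosb, Fosl2, Atf3, Egr1, Ier2 and Ier3, 10 genes chosen by name and all measured, each by 1 probe set, among 19505 genes on the array. They were measured in biopsies of C57BL/6 mouse liver, with 8 control samples and 8 samples of a nonalcoholic steatohepatitis (NASH) model, a fatty liver disease with inflammation. The labels do not say how the model was induced, nor do they give the sex, age, time of collection or the delay before tissue was preserved. Sample numbers are those of the labels, which do not state whether samples are separate animals. NASH model 1a and 1b share a number and may come from 1 animal, but both were counted. Averaged to 1 sample, Jun differed by 1.04 and Egr1 by 0.94 (adjusted p = 0.017 and 0.035 by limma; exact two-sided permutation p = 0.017 and 0.027), and the same count of 4 members was higher. The spread behind each p-value is therefore that of these samples and may be partly technical. Values are log2 intensities after quantile normalization, and a background floor of 2.89 was set at the 95th percentile of 1412 olfactory and vomeronasal receptor genes.

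AP-1 is a family of dimeric transcription factors built from basic leucine zipper proteins of the Jun, Fos and ATF groups, and its makeup decides whether target genes are activated or repressed. Most of its genes, with the zinc finger factor gene Egr1 and the genes Ier2 and Ier3, are immediate early genes, which are transcribed within minutes of a growth factor, cytokine or stress signal without new protein synthesis and whose RNAs are short-lived. In liver they are known for their response to partial hepatectomy, ischaemia, endotoxin and tissue handling.

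The stretches upstream of 4 members are shown because these genes gave the contrasts of the data: Atf3 and Ier3 rose furthest, Jun rose with groups that overlapped, and Fos did not pass the test. Each is the 250 bases before the RefSeq start in build GRCm38.p6, for Atf3 chr1:191183334-191183583 (minus strand), for Jun chr4:95052223-95052472 (minus strand), for Fos chr12:85473640-85473889 (plus strand) and for Ier3 chr17:35821463-35821712 (plus strand). They read 5′ to 3′ on the gene's strand. Capitals mark motif matches.
Atf3: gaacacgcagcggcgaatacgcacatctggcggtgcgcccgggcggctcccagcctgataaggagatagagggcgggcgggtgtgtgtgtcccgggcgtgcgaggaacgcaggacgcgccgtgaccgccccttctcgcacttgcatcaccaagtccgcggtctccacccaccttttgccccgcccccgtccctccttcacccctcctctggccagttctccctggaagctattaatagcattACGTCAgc
Jun: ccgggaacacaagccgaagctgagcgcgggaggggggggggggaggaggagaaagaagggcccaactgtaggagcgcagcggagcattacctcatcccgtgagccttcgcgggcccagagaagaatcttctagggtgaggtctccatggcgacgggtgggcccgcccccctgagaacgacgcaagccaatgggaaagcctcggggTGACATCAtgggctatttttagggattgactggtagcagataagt
Fos: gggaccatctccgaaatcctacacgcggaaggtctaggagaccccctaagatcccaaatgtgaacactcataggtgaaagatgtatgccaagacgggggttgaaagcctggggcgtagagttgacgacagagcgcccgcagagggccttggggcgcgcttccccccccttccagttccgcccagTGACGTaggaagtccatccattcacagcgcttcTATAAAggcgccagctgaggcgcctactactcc
Ier3: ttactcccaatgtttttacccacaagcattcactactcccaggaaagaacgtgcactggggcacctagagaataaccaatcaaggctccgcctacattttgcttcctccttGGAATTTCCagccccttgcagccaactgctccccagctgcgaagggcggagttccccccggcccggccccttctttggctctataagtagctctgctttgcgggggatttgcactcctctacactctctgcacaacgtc

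The search covered both strands for TGANTCA (the TPA response element bound by AP-1), TGACGTCA (the cAMP response element) and its shorter form TGACGT, TGACATCA (the variant known from the Jun promoter), GGAATTTCC (an NF-kB type sequence), TATAAA and the CArG box of serum response factor, and the letters were chosen with these windows in view. Windows were found for 8 of the 10 members, not for Egr1 and Ier2. The Jun window held TGACATCA at 45 to 38 bases before the start, a sequence present in 2.93% of all 32851 windows of this length. TGACGT, present in 6.47% of all windows, stood at 66 to 61 bases before the start of Fos and, on the opposite strand, at 8 to 3 bases before that of Atf3. GGAATTTCC lay at 139 to 131 bases before the start of Ier3 and in 0.286% of all windows. TATAAA, present in 12.4% of all windows, lay at 33 to 28 bases before the start of Fos. TGANTCA (6.75% of all windows), TGACGTCA (1.55%) and the CArG box (1.47%) had no match in the 8 member windows, and the Junb, Jund, Fosb and Fosl2 windows matched none of the motifs. A match describes the letters only.

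In the NASH model livers 4 of the 10 genes were higher, Atf3, Ier3, Jun and Egr1, and 0 were lower, while 6 did not pass the test. The test was limma's moderated test with Benjamini-Hochberg adjustment over all genes, with a call at an adjusted p under 0.05. Over all genes 26.6% were called, 13.2% as higher and 13.4% as lower. For Atf3 and Ier3 the groups did not overlap, as for 9.54% of all genes. The median log2 fold change of the 10 genes was 0.57, against -0.04 over all genes. At an unadjusted p under 0.05, 5 of the 10 were higher and 0 lower by limma, and likewise 5 and 0 by the exact permutation test. The shares of all genes at these unadjusted cuts were not computed, so these counts have no background. They cannot be set against the shares above, which are at the adjusted cut.

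**Figure D1:**
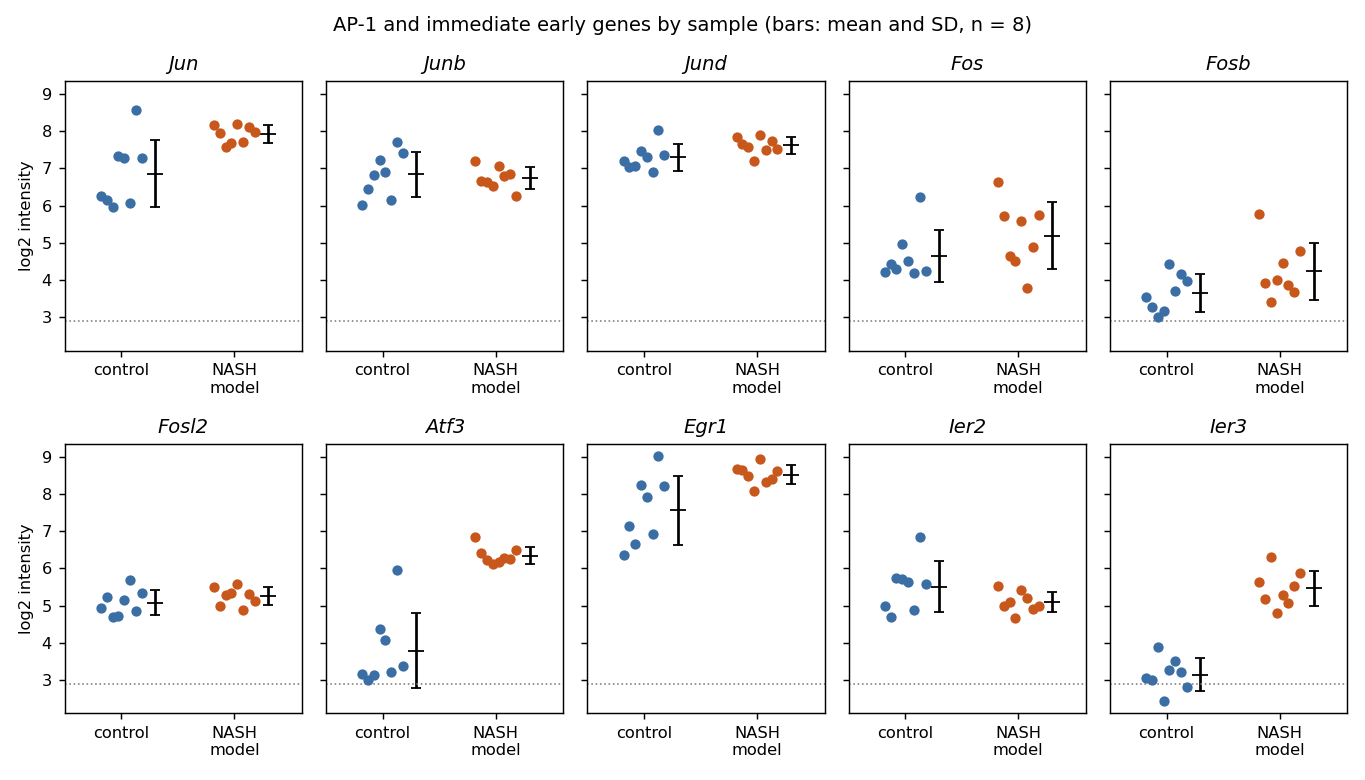
Log2 intensity (y axis) of each of the 10 genes in 8 control (blue) and 8 NASH model (orange) samples, with mean and SD beside the points and the background floor as a dotted line. Atf3 and Ier3 separate the groups, whereas for Jun and Egr1 1 control lies above every NASH model sample.

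Atf3 encodes a stress-induced member of the ATF group that represses transcription as a homodimer and pairs with Jun proteins. Its log2 intensity ran from 3.01 to 5.96 in controls (median 3.30) and from 6.10 to 6.83 in the NASH model (median 6.26). All 8 NASH model samples lay above all controls, and the highest control, number 9 at 5.96, stood apart from the next at 4.38. Atf3 was 5.87-fold higher (log2 fold change 2.55 ± 0.32 SE, adjusted p = 4.6e-06 by limma, n = 8 per group), the rank 67 among the fold changes of all genes. Without control 9 the log2 fold change was 2.86 ± 0.19.

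Ier3 encodes a short-lived protein that is induced by NF-kB and growth factors and modulates cell survival. It ran from 2.43 to 3.88 in controls (median 3.13) and from 4.81 to 6.31 in the NASH model (median 5.40). The groups did not overlap. The log2 fold change was 2.31 ± 0.21 SE, or 4.97-fold (adjusted p = 6.5e-08 by limma). In 2 controls it lay below the background floor. NASH model 2 was highest at 6.31 and NASH model 3 lowest at 4.81.

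Jun encodes c-Jun, the main activating partner of AP-1 dimers. It ran from 5.97 to 8.56 in controls (median 6.77) and from 7.58 to 8.18 in the NASH model (median 7.97). The groups overlapped: controls 1, 3, 4 and 7 lay between 5.97 and 6.27, controls 5, 6 and 10 between 7.27 and 7.32, and control 9, at 8.56, lay above every NASH model sample. All 8 NASH model samples lay above the control median. The mean difference was 1.06 ± 0.29 SE on the log2 scale, 2.08-fold (adjusted p = 0.0094 by limma; exact two-sided permutation p = 0.0087). It was 1.30 ± 0.21 without control 9.

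Egr1 encodes a zinc finger transcription factor induced by the same signals. Controls ran from 6.36 to 9.02 (median 7.53) and NASH model samples from 8.08 to 8.94 (median 8.54). Control 9 again lay above every NASH model sample, and controls 1, 3, 4 and 7 were again the 4 lowest, at 6.36 to 7.15. The log2 fold change was 0.96 ± 0.30 SE, 1.95-fold (adjusted p = 0.021 by limma; exact two-sided permutation p = 0.016). Leaving out NASH model 1a with 1b ended the call (0.91, adjusted p = 0.061), as did leaving out 2 with 7 (0.95, adjusted p = 0.057) and a clock score as a covariate (1.06, adjusted p = 0.13).

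Of the other Jun family genes, Jund, which encodes a more constantly expressed Jun protein, ran from 6.89 to 8.04 in controls and from 7.21 to 7.90 in the NASH model. Its difference of 0.32 ± 0.14 SE did not pass (adjusted p = 0.10 by limma). The unadjusted exact two-sided permutation p was 0.048, and 0.076 with NASH model 1a and 1b averaged. Without control 9 the difference was 0.43 ± 0.11 and passed (adjusted p = 0.0092 by limma). Junb, whose product opposes c-Jun at many targets, ran from 6.02 to 7.72 in controls and from 6.26 to 7.21 in the NASH model. Its difference was -0.09 with a 95% interval from -0.54 to 0.35 (adjusted p = 0.80), and its sign turned with spike-in centring (0.07), with a replicate block (0.17), without NASH model 2 and 7 (0.004) and without control 9 (0.03). Without control 1 it was -0.21.

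**Figure D2:**
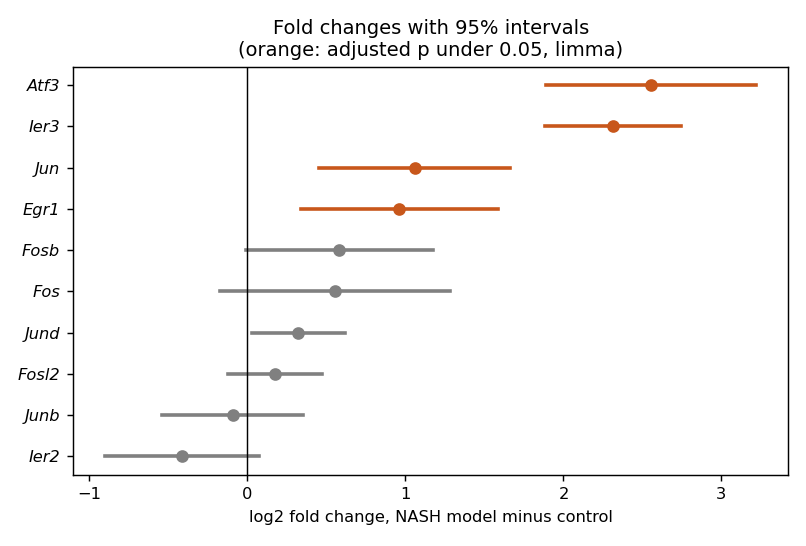
Log2 fold change of each gene (x axis, NASH model minus control) with its 95% interval; orange marks genes with an adjusted p under 0.05 by limma. Atf3 (2.55) and Ier3 (2.31) stand above Jun (1.06) and Egr1 (0.96), and Ier2 (-0.41) is the lowest.

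The Fos family genes did not pass. Fos, which encodes the partner that dimerises with Jun proteins, ran from 4.205 to 6.24 in controls (median 4.36) and from 3.80 to 6.63 in the NASH model (median 5.24). Its difference was 0.55 ± 0.35 SE with a 95% interval from -0.17 to 1.28 (adjusted p = 0.27 by limma). Control 9, at 6.24, stood apart from the next control at 4.97, and the groups overlapped widely, with 1 NASH model sample below and 1 above all controls. Without control 9 the difference was 0.78 ± 0.31 (adjusted p = 0.069), and without NASH model 1a, the highest, it was 0.35 (adjusted p = 0.48).

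Fosb, a close relative of Fos, ran from 3.002 to 4.43 in controls and from 3.41 to 5.78 in the NASH model, with 3 of 8 NASH model samples above every control. Its difference was 0.58 ± 0.28 SE (adjusted p = 0.15), and 0.36 without NASH model 1a, in which it was highest. Fosl2 encodes Fra-2, a Fos protein linked to fibrosis. It ran from 4.70 to 5.70 in controls and from 4.89 to 5.59 in the NASH model, with a difference of 0.17 and a 95% interval from -0.12 to 0.47 (adjusted p = 0.42). Without control 7, the highest, it was 0.26 (adjusted p = 0.15). The difference also depended on the scaling. It was 0.31 with the values as deposited, 0.25 with cyclic loess and 0.23 with median centring (adjusted p from 0.11 to 0.24 by limma). With spike-in centring it was 0.45 and passed (adjusted p = 0.041).

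Ier2 encodes a nuclear protein of the immediate early response. It ran from 4.68 to 6.85 in controls (median 5.61) and from 4.67 to 5.51 in the NASH model (median 5.04), and all 8 NASH model samples lay below the control median. Its difference was -0.41 ± 0.23 SE and did not pass (adjusted p = 0.21 by limma; exact two-sided permutation p = 0.13). It was -0.22 without control 9.

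The difference between the log2 intensities of related genes within each sample is given for 8 pairs. As the pairs were chosen after the values were seen, they are a description with no test. How often the differences of other gene pairs separate the groups was not computed. Jun minus Junb ran from -0.86 to 0.85 in controls and from 0.93 to 1.73 in the NASH model, without overlap, although the levels of each gene overlapped. Its mean was 0.02 ± 0.50 in controls and 1.18 ± 0.26 in the NASH model (SD). Egr1 minus Ier2, which sets a higher gene against the gene of lowest fold change, ran from 0.91 to 2.64 in controls and from 3.12 to 3.67 in the NASH model, also without overlap.

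Jun minus Jund averaged -0.43 ± 0.57 in controls and 0.30 ± 0.15 in the NASH model (SD), with overlapping groups that no longer overlapped without control 9. Junb minus Jund averaged -0.45 ± 0.38 and -0.87 ± 0.20, and the groups overlapped. Ier2 minus Ier3 averaged 2.36 ± 0.81 and -0.37 ± 0.49, without overlap, but Ier3 alone already separated the groups. The 3 pairs within the Fos family overlapped, and the means of the groups differed by -0.03 to 0.41.

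**Figure D3:**
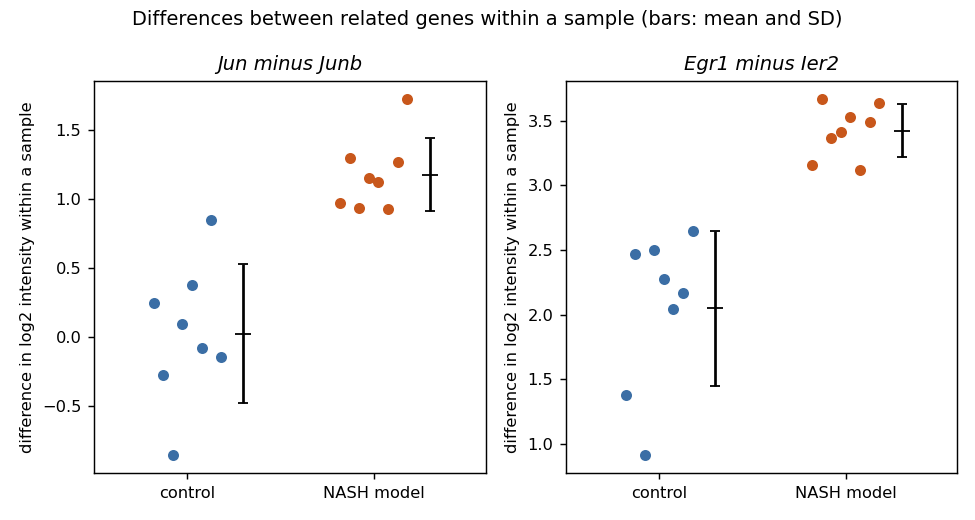
Difference in log2 intensity within each sample (y axis) for Jun minus Junb and Egr1 minus Ier2, with mean and SD beside the points, 8 samples per group. The NASH model values, from 0.93 and from 3.12 upward, lie above every control value, of which the highest are 0.85 and 2.64.

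The controls varied more than the NASH model samples in several of these genes. The SD of Jun was 0.90 in controls and 0.24 in the NASH model, that of Egr1 0.92 and 0.26, and that of Atf3 1.003 and 0.24. The ratio of the SDs was 3.79 for Jun, 3.54 for Egr1 and 4.27 for Atf3, against a median of 1.14 over all genes, and 0.800%, 1.13% and 0.456% of all genes reached these ratios. An exact permutation test of the absolute deviations from the group median, chosen after the values were seen and run on each of the 10 genes, gave unadjusted p = 0.00016 for Jun, 0.00093 for Egr1 and 0.096 for Atf3. The spread rested in part on control 9: without it the SDs were 0.63, 0.77 and 0.53. The exact permutation p without it was 0.10, 0.018 and 0.28. The control medians of Jun (6.77) and Egr1 (7.53) fell in gaps between control values, so no control lay near them. Omitting any single control moves these medians, so the change in p cannot be credited to control 9 alone. No other control was left out of this test. In 3 members the SD was larger in the NASH model: 0.69 in controls and 0.89 in the NASH model for Fos, 0.51 and 0.76 for Fosb, and 0.44 and 0.48 for Ier3. Their unadjusted exact permutation p ran from 0.24 to 0.71.

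Control 9 was the highest control in 7 of the 10 genes, Jun, Junb, Jund, Fos, Atf3, Egr1 and Ier2. It was not the highest in Ier3, which was 3.21 there, nor in Fosb or Fosl2. In the NASH model, sample 1a was highest in 5 genes (Junb, Fos, Fosb, Atf3 and Ier2), sample 4 was highest in 4 (Jun, Jund, Fosl2 and Egr1), and sample 3 was lowest in 5. Control 9 also had the highest mean log2 intensity of the 7 cholangiocyte markers among controls, 4.37 against 3.49 to 3.703 in the other 7. It was also the highest control in the hepatocyte markers (10.82, control 10 at 10.76) and in the stellate cell and fibroblast markers (5.821, control 3 at 5.818). The part of these markers in its immediate early gene levels was not tested.

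**Figure D4:**
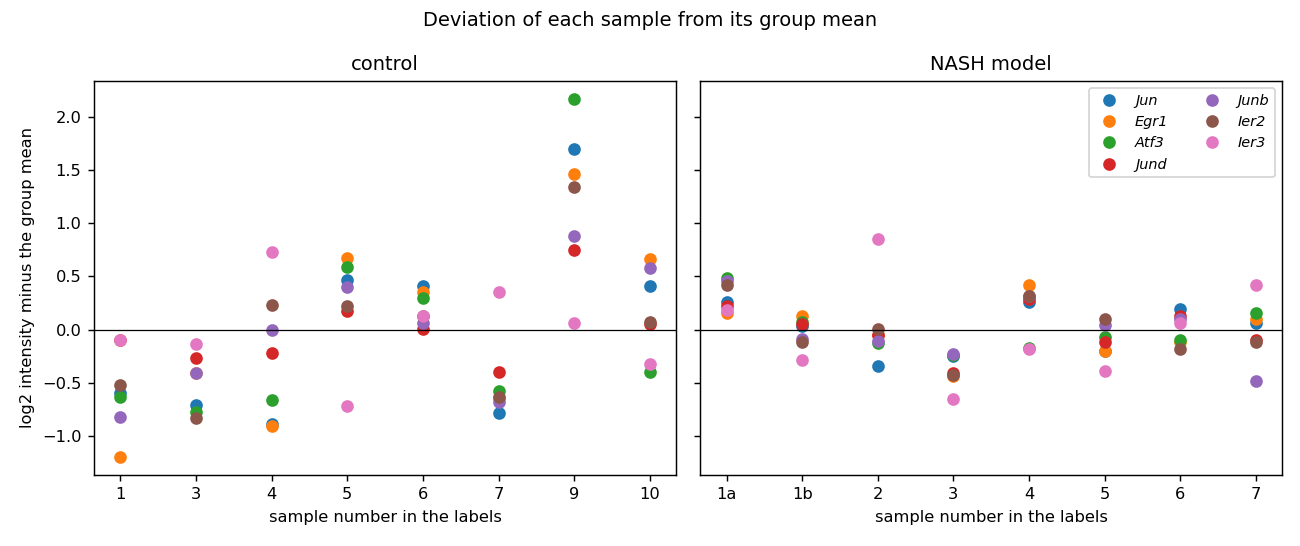
Log2 intensity minus the group mean (y axis) for 7 genes in each sample (x axis, number in the labels), controls on the left and NASH model on the right. In control 9 Jun, Egr1, Atf3 and Ier2 stand more than 1 above the group mean and Ier3 stays near it. The NASH model samples lie closer together in Jun, Egr1 and Atf3 but not in Ier3.

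Within each group the 10 genes form 45 pairs, and correlations were computed for all 90. Among the 8 controls 14 pairs passed at an adjusted p under 0.05 by exact permutation of Pearson's r, and 0 passed by Spearman's rho, against 21 with an unadjusted p under 0.05 by r. The adjusted p of the 14 lay between 0.046 and 0.0496 by this test, just under the threshold. How often pairs of other genes pass was not computed. The 14 include 3 with Jun, whose control values fall into separate sets, so no r is given for Jun. The control values of Atf3 and Egr1 were uneven too: in both, controls 1, 3, 4 and 7 were the lowest and control 9 the highest. The r values with these genes carry a like limit. Jund and Atf3 had r = 0.94 (exact permutation p = 0.0023, adjusted 0.046) and rho = 0.83 (p = 0.015, adjusted 0.20), with r = 0.84 without the 2 samples farthest from the median of Jund. Junb and Egr1 had r = 0.91 (exact permutation p = 0.0028, adjusted 0.046) and rho = 0.90 (p = 0.0046, adjusted 0.20), with r = 0.78 without the 2 samples farthest from the median of Junb. Fos and Atf3 had r = 0.96 but rho = 0.60 (exact permutation p = 0.0032 and 0.13, adjusted 0.046 and 0.35), and r was 0.59 without the 2 farthest samples, so this relation rested on them. Without control 9, 0 of 45 pairs passed, likewise 0 without control 3, 5, 6 or 7, and 1 without control 1. As all 14 pairs lay just under the threshold, a small change can end all the calls at once. These counts therefore cannot show that the pairs depended on the sample left out. Among the NASH model samples 43 of 45 pairs had r above 0, and 0 passed by the exact permutation test (11 at an unadjusted p under 0.05).

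The genes whose values, centred on their group means, were most like those of a member over the 16 samples were in part other members, a description with no test that shares arrays and includes control 9. Egr1, Atf3 and Jund were most like Jun, with no r given for Jun for the same reason. Beside Jun, Jund was most like Alox15 (r = 0.88) and Smad2 (0.88). Btg2, an antiproliferative immediate early gene, was among the 3 nearest to Egr1 (r = 0.90), Junb (0.85) and Ier2 (0.84), whose other neighbours were Olfr1391 (0.90) and Jun for Egr1, Krtap11-1 (0.85) and Ier2 for Junb, and Jund (0.85) and Junb (0.84) for Ier2. Vmn1r121 (r = 0.88) and Cecr2 (0.86) followed Jun for Atf3. Olfr1391, Krtap11-1, Vmn1r121 and Usp50 lay below the background floor in all 16 samples. Fos was nearest to Ccn1 (r = 0.84), an immediate early matrix protein gene, Cnn1 (0.78) and Aqp3 (0.77), Fosb to Casr (0.84), Fut9 (0.83) and Sprr2j-ps (0.81), and Fosl2 to Usp50 (0.85), Txndc11 (0.85) and Gbp2 (0.84). Ier3 was nearest to Psph (r = 0.91), Tpd52 (0.90) and the lysosomal protease gene Ctsl (0.85), and no other member was among its 3.

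Other immediate early genes were more often higher than lower. Of 35 measured, 15 were higher and 5 lower, beside 13.2% and 13.4% of all genes, with a median of 0.15 (all genes -0.04). The count of lower genes was thus near the share of all genes. Klf6, a zinc finger factor, rose by 2.48 ± 0.17 SE on the log2 scale (adjusted p = 1.4e-09 by limma), and Egr2, a relative of Egr1, rose by 2.04 ± 0.11 (adjusted p = 3.0e-11). The feedback inhibitor of cytokine signalling Socs3 fell by 1.41 ± 0.24 and the growth arrest gene Gadd45g by 1.31 ± 0.25. The other 3 genes that fell, named after their values were seen, were Csrnp1 (-0.94), the MAP kinase phosphatase Dusp1 (-0.68) and Tiparp (-0.51). Most of the 15 higher genes are not named in this paragraph. Egr2 was far less spread than Egr1, from 4.13 ± 0.23 in controls to 6.17 ± 0.16 in the NASH model (SD).

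Of 11 measured further bZIP genes whose products pair with AP-1 members, 3 were higher and 1 lower (median 0.14). Among all genes 13.2% were higher and 13.4% lower. The small Maf genes Maff (0.89 ± 0.31 SE) and Mafk (0.51 ± 0.17) and the stress factor gene Atf4 (0.32 ± 0.11) were higher and Mafg (-0.43 ± 0.16) was lower, with adjusted p from 0.029 to 0.050 by limma. Without NASH model 2 alone, as with a replicate block, 0 were higher, and with NASH model 1a and 1b averaged 1 was. Higher genes numbered 1 without control 1, 3, 6 or 9 or without NASH model 1a, 3 or 4. In the refits without 1 sample, Mafg passed only when control 1, control 10 or NASH model 1a was left out.

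Of 20 measured upstream regulators, kinases and transcription factors that induce immediate early genes, 2 were higher, 1 was lower and 17 did not pass (median -0.08). Among all genes 26.6% were called, 13.2% as higher and 13.4% as lower. The receptor gene Egfr fell by 1.29 ± 0.18 SE (adjusted p = 2.4e-05 by limma), from 9.46 ± 0.30 to 8.18 ± 0.49 (SD). Map3k1, a kinase upstream of the Jun kinases, rose by 0.85 ± 0.12, and the ternary complex factor gene Elk3 by 0.40 ± 0.13, which did not pass without control 1 (adjusted p = 0.061), control 4 (0.057), control 7 (0.061) or control 9 (0.055), nor without NASH model 2 (0.057), 3 (0.054), 4 (0.0505) or 6 (0.055). Lower regulators numbered 2 without control 4, control 9 or NASH model 1b.

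Textbook AP-1 targets were higher in 13 of 19 measured genes and lower in 0, with 0 lower in every refit, with a median of 1.45. For the counts in this paragraph, the shares of all genes were 13.2% higher and 13.4% lower. Mmp12, a macrophage elastase, rose by 8.26 ± 0.17 SE and the intermediate filament gene Vim by 2.50 ± 0.14. The protease gene Plau rose at least 4.48-fold, with all controls below the background floor (2.79 ± 0.13 between the measured means, adjusted p = 5.6e-12 by limma). Timp1, a metalloproteinase inhibitor, rose by 2.37 ± 0.25. Of 8 heat shock genes, which respond to protein damage and handling, 0 were higher and 2 were lower, Hsph1 (-0.84 ± 0.14) and Hsp90aa1 (-0.75 ± 0.15).

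**Figure D5:**
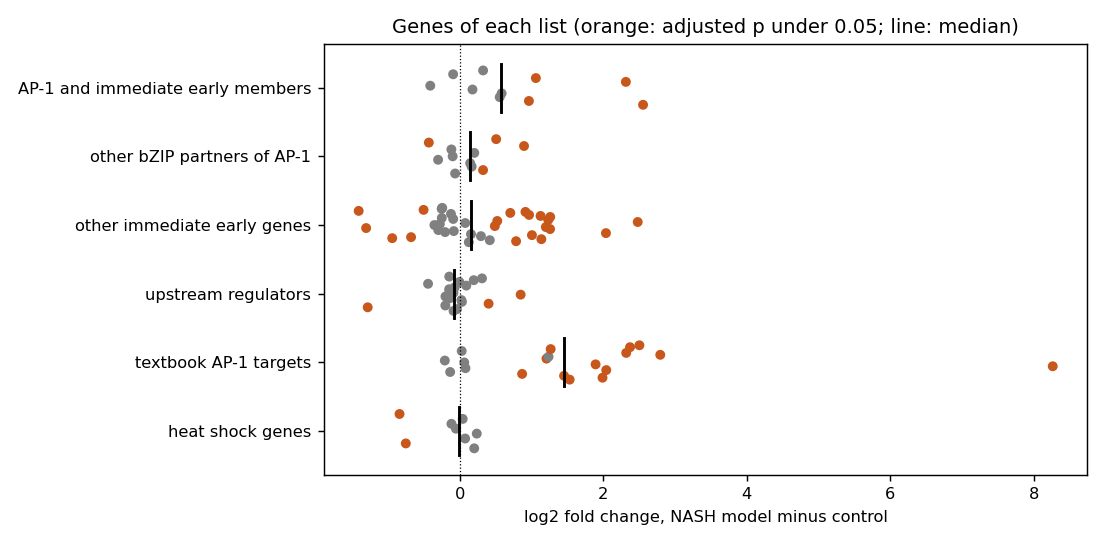
Log2 fold changes (x axis, NASH model minus control) of the genes of 6 lists; orange points have an adjusted p under 0.05 by limma and the black line is the list's median. The 10 AP-1 and immediate early genes have a median of 0.57 and the AP-1 targets one of 1.45, with Mmp12 at 8.26, and the other 4 lists lie around 0.

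Other measures moved with the groups, and their part in these results was not tested. For the counts in this paragraph and the next, the shares of all genes were 13.2% higher and 13.4% lower. Of 10 macrophage markers 10 were higher, led by Gpnmb (7.51) and Lgals3 (4.08), with a mean log2 intensity of 3.38 to 4.04 in controls and 6.44 to 7.05 in the NASH model, and Cx3cr1 lay below the background floor in all controls. Stellate cell and fibroblast markers were higher in 9 of 11 (Lum 3.03, Col3a1 2.95; 5.40 to 5.82 against 6.79 to 7.43) and cholangiocyte markers in 5 of 7 (Tspan8 2.70, Muc1 2.28; 3.49 to 4.37 against 3.79 to 6.34). Neutrophil markers were higher in 2 of 7 and lower in 0, or in 1 without control 10 (Csf3r 1.30, S100a8 1.11; 2.70 to 4.26 against 3.38 to 4.40), and lymphocyte markers higher in 3 of 7 and lower in 1 (Cd4 -1.66, Cd8a 1.02; 3.20 to 3.64 against 3.26 to 3.63). Kupffer cell markers were lower in 4 of 7 and higher in 1 (Cd163 -2.84, Timd4 -2.002; 5.68 to 7.06 against 4.92 to 5.77) and endothelial markers lower in 5 of 7 and higher in 1 (Kdr and Oit3 -0.70 each; 6.57 to 6.997 against 6.22 to 6.67). Hepatocyte markers, lower in 4 of 11 (F7 -0.84, Foxa2 -0.76), were bright in all samples, 10.67 to 10.82 against 10.35 to 10.56. In such bulk samples more cells of a type cannot be told apart from more RNA per cell.

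Clock genes, many of which cycle daily in liver, also differed, with 6 of 18 higher and 6 lower (Arntl -1.79, Ciart 1.48). A clock score per sample ran from -3.93 to 2.78 in controls and from 1.13 to 2.62 in the NASH model. Control 9 had the lowest, close to control 7 (-3.85) and control 6 (-3.75). The score thus differed between the groups, so as a covariate it was not independent of the group. With the score as a covariate Jun differed by 1.25 ± 0.43 SE (adjusted p = 0.063 by limma) and Egr1 by 1.06 ± 0.45, and Atf3 (2.73 ± 0.48) and Ier3 (2.57 ± 0.30) passed.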

How the data were processed

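Total RNA from 16 liver biopsies was isolated with TRIzol and labelled with biotin by an Affymetrix protocol, per the labels' protocols. The authors deposited log2 intensities of 29129 probe sets, from 0.62 to 12.7, and these were used. The software that made them and the array's genome build are not given in the sources used here. Column medians ran from 3.52 to 3.66, and quantile normalization changed no value by more than 0.16. Each gene, named from the platform annotation, was read from its probe set of highest mean. Groups were compared with limma 3.58.1 (R 4.3.3, lmFit and eBayes), two-sided, with no filter and with Benjamini-Hochberg adjustment over 19505 genes. The fit was tested on simulated data. Exact permutation tests and figures used Python 3.11.15.

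The members and gene lists were chosen with earlier results of these data known, so no p of a group difference or of spread is adjusted over the members alone. The adjusted p of the correlations are over the 90 pairs of members in both groups and share this limit. Text names all members, the 4 (pathway lists) or 2 (marker and clock lists) called genes with the largest changes, and the 3 genes most like each member. The tests of spread, the differences between pairs of genes, and the refit without both control 9 and NASH model 1a, were added after seeing the data. Listed genes with no named probe set were not analysed here. Two-sided exact tests assume that samples are independent. The number of arrays limits the precision. The clock score takes its gene weights from the first principal component of 18 clock genes centred within groups. Each sample's values, centred over all samples, were projected on it, so the score keeps the group difference. The alternatives tried were other scalings (values as deposited, median, spike-in, cyclic loess), leaving out the 40% of genes with the lowest means, probe set means, trend and robust options, array weights, a replicate block, the clock score, NASH model 1a and 1b averaged, and the omission of samples.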

Additional observations from a re-analysis of the deposited data

Results flagged for a closer look

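A sample was set apart where its gap to the nearest other sample of its group exceeded 0.526 of the group's range, Dixon's limit for 8 samples. Of 90 groups looked at (45 genes, both groups), 8 held such a sample, and chance alone gives about 1 in 20. Among the AP-1 and immediate early genes these were Fos in control 9 (6.24, the next control 4.97) and Atf3 in control 9 (5.96, the next 4.38). Among the other named genes, low values were those of Maff in NASH model 5 (3.69, the next 4.35), Klf6 in control 7 (3.73, the next 4.57), Gadd45g in NASH model 7 (5.61, the next 6.74), Hsph1 in NASH model 1a (5.85, the next 6.22) and Timd4 in control 5 (3.52, the next 4.60). S100a8 in control 4 was high (4.30, the next 2.81).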

How the results depend on the processing

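Atf3 and Ier3 passed in all 30 refits by limma, with log2 fold changes from 2.44 to 2.86 and from 2.10 to 2.57. Jun passed in 29 (0.93 to 1.46) and Egr1 in 27 (0.79 to 1.35), and the failures are those given in the report. The 4 higher genes became 7 with spike-in centring and 2 with the clock score. With spike-in centring Jund (0.45), Fosb (0.82) and Fosl2 (0.45) passed at adjusted p from 0.041 to 0.0496 by limma. Over all 19505 genes 2577 were higher in the main fit, 3630 with spike-in centring and 1553 with the clock score. Spike-in centring moved the median of all genes by 0.14. No member was lower in any refit. Higher genes made up 49.6% of all calls, 39.2% with median centring and 78.9% with spike-in centring. Over all genes 5196 were called, and 2837 with the clock score, where Ciart, one of the genes behind the score, turned to -0.41.

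Among other immediate early genes 12 to 16 were higher over the refits and 2 to 5 lower (3 with spike-in centring, 2 with the clock score), and AP-1 targets were higher in 11 to 13. Higher bZIP partners numbered 0 to 4, upstream regulators 1 to 3 and lower heat shock genes 0 to 3.

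Correlated pairs among controls numbered 0 to 16 when 1 sample was left out and 0 without both control 9 and NASH model 1a, an alternative chosen after seeing the data. In the NASH model they numbered 0 to 1 when 1 sample was left out, 1 with median centring or without NASH model 2 and 7, and 6 with spike-in centring. The cause was not tested. The labels do not say that the numbers shared by the groups pair the samples. Deviations of same-numbered samples correlated at -0.03 to 0.06, and 1 of 7 NASH model samples was closest to its own number. These values have no reference for chance, so they cannot decide on pairing. The replicate block lowered the SE of Jun from 0.29 to 0.21 and that of Atf3 from 0.32 to 0.20. Control 9, control 10 and NASH model 2 are each the only sample of their number. In the block fit they therefore do not inform the group difference. Leaving out control 9 alone, with no block, gave SEs of 0.21 for Jun and 0.19 for Atf3. The lower SEs with the block thus cannot decide on pairing either. With the replicate block 3924 of 19505 genes were called, 2063 of them as higher. Jund then passed (0.45, adjusted p = 0.025 by limma), giving 5 higher members.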
